A study of Mus musculus with 16 samples.

Results

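The genes described here are 36 genes that mark the bone-forming lineage, from committed precursors to osteoblasts and osteocytes. They were chosen by symbol from a fixed list, and all 36 were among the 52459 genes of the count table. Earlier results of these data, which already showed lower osteoblast genes in SS, were known when the list was made. The 36 genes were separated into 14 early osteogenic genes, 15 genes of mature osteoblasts and 7 osteocyte genes. This division was made from general knowledge of the lineage. The libraries came from bone marrow stromal cells of SS and SA mice of the Townes sickle model (4 libraries each), sorted as live single cells that carried CD51 and CD140a and lacked CD45, Ter119 and CD31. In both genotypes the mouse alpha globin genes were replaced by human alpha globin. SS mice carry human sickle beta globin on both chromosomes in place of the mouse adult beta globins, together with a human A-gamma globin gene. SA mice, the controls, carry 1 sickle and 1 normal human beta globin, so that the control also holds a sickle allele. The age and sex of the mice are not given in the labels, and the labels number the libraries without saying whether each came from its own mouse. Should some share an animal, p-values would reflect only the spread between libraries, which may be technical.

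Bone is built by osteoblasts, which arise from marrow stromal progenitors under the transcription factors Runx2 and then Sp7. Young osteoblasts make alkaline phosphatase and type I collagen. Mature ones add bone sialoprotein and osteocalcin, which bind mineral, and some become buried in it as osteocytes that express Dmp1, Phex and Mepe and take part in phosphate balance. CD51 and CD140a mark marrow stromal cells that hold progenitors of bone and fat and that support blood stem cells.

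Total counts were 24797857 to 31117007 per library. The sort was checked by its genes. Pdgfra, which encodes CD140a, averaged 337 ± 148 CPM in SA against 421 ± 64.7 CPM in SS (SD, n = 4), CPM being counts scaled to a common library total. Ptprc, which encodes the gated-out CD45, was not absent, at 49.6 to 746 CPM. The 15 pan-leukocyte markers summed to 747 to 4694 CPM in SA and 346 to 2777 CPM in SS, and SA replicates 1 and 2 and SS replicate 1 held the most. SS replicate 2 stood apart, with 57347 counts of Xist, a transcript of female cells, against at most 420 elsewhere. Ddx3y, a gene of the Y chromosome, had 12 counts there and 2282 to 4436 in the other libraries. By these genes SS replicate 2 was the only female library, so sex cannot be told apart from its other differences. SS replicate 2 was also the library richest in cartilage genes, and SS replicate 4 was the richest in fat cell genes. The labels of 1 lane of SS replicate 4 name both genotypes, and it was kept in SS by its title. Numbers in the titles that look like dates differ between all SA libraries and all SS libraries, so what they stand for and genotype cannot be told apart. SS replicate 2 differs in this number from the other 3 SS libraries too.

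The 3 osteocalcin genes lie next to each other on chromosome 3, and their coding sequences show how little separates them for a short read. On GRCm38, Bglap spans chr3:88383501-88384464, Bglap2 chr3:88377736-88378699 and Bglap3 chr3:88368616-88372743, all on the minus strand and annotated as protein-coding. Their coding sequences (GENCODE M21, 288 bases each) are printed with the 13 positions at which the 3 genes do not all have the same base in capitals.
Bglap: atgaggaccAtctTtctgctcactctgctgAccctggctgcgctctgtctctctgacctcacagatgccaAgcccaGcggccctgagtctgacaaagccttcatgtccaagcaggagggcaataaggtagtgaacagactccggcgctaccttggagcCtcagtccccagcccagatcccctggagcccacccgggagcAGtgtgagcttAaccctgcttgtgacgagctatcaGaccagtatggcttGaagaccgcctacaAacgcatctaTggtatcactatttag
Bglap2: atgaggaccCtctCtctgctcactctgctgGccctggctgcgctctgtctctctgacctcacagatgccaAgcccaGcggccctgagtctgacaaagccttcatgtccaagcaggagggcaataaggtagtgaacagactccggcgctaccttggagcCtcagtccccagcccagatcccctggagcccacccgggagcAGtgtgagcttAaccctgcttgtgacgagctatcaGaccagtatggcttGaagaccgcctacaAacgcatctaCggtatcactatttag
Bglap3: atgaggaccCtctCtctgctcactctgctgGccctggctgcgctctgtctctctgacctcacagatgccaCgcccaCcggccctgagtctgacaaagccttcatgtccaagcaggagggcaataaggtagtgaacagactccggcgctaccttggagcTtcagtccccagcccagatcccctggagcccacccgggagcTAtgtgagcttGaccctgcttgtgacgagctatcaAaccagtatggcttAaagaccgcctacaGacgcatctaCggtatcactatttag
Bglap and Bglap2 are identical at 284 of the 288 bases (98.6%), Bglap and Bglap3 at 275 (95.5%) and Bglap2 and Bglap3 at 279 (96.9%). Counts of the 3 genes are therefore uncertain, since the sources used here do not say how reads that fit more than 1 copy were counted.

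A second cluster holds 4 of the members side by side on chromosome 5. Dmp1 (chr5:104202613-104214102), Ibsp (chr5:104299171-104311469), Mepe (chr5:104325329-104338611) and Spp1 (chr5:104435118-104441050) all lie on the plus strand and encode secreted, acidic phosphoproteins of mineralized matrix. The 250 bases before the RefSeq start of these 4 genes and of Bglap (GRCm38.p6) are printed. All are bone matrix genes among those used here to define the lineage. Capitals mark the core letters of the RUNX motif, TGTGGT or ACCACA on the other strand, and of a homeodomain motif, TAATTA, which reads the same on both strands.
Bglap, chr3:88384467-88384716, minus strand: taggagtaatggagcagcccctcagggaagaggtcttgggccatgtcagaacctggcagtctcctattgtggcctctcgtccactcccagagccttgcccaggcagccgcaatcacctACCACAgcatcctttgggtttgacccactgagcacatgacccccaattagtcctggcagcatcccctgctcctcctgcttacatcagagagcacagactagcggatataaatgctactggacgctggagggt
Ibsp, chr5:104299037-104299286, plus strand: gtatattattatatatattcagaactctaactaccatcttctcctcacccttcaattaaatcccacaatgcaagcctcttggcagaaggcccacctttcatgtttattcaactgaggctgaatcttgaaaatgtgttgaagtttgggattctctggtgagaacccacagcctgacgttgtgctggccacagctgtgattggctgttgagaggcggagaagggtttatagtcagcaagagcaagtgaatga
Dmp1, chr5:104202367-104202616, plus strand: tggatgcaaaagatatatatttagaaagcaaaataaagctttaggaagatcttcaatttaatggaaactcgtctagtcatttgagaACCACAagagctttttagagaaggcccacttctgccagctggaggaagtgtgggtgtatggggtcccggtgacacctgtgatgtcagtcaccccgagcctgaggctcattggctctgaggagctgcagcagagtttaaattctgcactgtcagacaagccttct
Mepe, chr5:104325079-104325328, plus strand: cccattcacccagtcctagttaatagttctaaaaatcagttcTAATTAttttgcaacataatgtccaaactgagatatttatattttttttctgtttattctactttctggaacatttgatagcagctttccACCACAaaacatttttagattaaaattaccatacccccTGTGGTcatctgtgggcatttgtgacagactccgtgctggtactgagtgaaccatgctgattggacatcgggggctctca
Spp1, chr5:104434861-104435110, plus strand: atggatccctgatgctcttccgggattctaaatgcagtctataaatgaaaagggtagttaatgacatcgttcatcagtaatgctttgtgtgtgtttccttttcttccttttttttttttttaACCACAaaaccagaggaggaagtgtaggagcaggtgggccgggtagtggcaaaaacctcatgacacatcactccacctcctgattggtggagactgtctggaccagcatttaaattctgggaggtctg
The first base of the RUNX letters lay 132 bases before the start in Bglap, 164 in Dmp1, 128 in Spp1, and 118 and 80 in Mepe, and none was in the window of Ibsp. Of the 23 members with a promoter in the RefSeq table, 7 held these letters and 2 the homeodomain letters, in the window nearest to the annotated start. Over all 32851 promoter windows of the same length the shares were 14% and 4.84%. A match describes the letters only.

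Between genotypes, no member passed edgeR's quasi-likelihood test at an adjusted p under 0.05, as no gene did (0 of 17316 tested, 0%). Limma-voom also called 0 of them. Of the 36 members 34 passed the low-count filter, the exceptions being Msx2 and Bglap3. Among the 34, 19 were lower in SS and 15 higher, with a median log2 fold change of -0.23. Over all genes tested 51% were lower, with a median of -0.014. At an unadjusted p under 0.05 stood 5 members that were lower (Smpd3, Kcnip3, Bglap2, Mepe and Bglap) and 1 that was higher (Slc20a2). Over all genes tested 2.96% were lower and 4.03% higher at that level. The genotypes did not overlap for 1 tested member, Ifitm5, which was lower. That is 1 of 34 members, while 1.55% of all genes tested were lower without overlap and 2.36% higher. The 3 classes had different medians: 0.091 for early genes (4 of 13 lower), -0.79 for mature osteoblast genes (11 of 14 lower) and -0.35 for osteocyte genes (4 of 7 lower). These differences between classes were not tested. The members were chosen with earlier results of these data known, so their direction is no independent support.

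**Figure D1:**
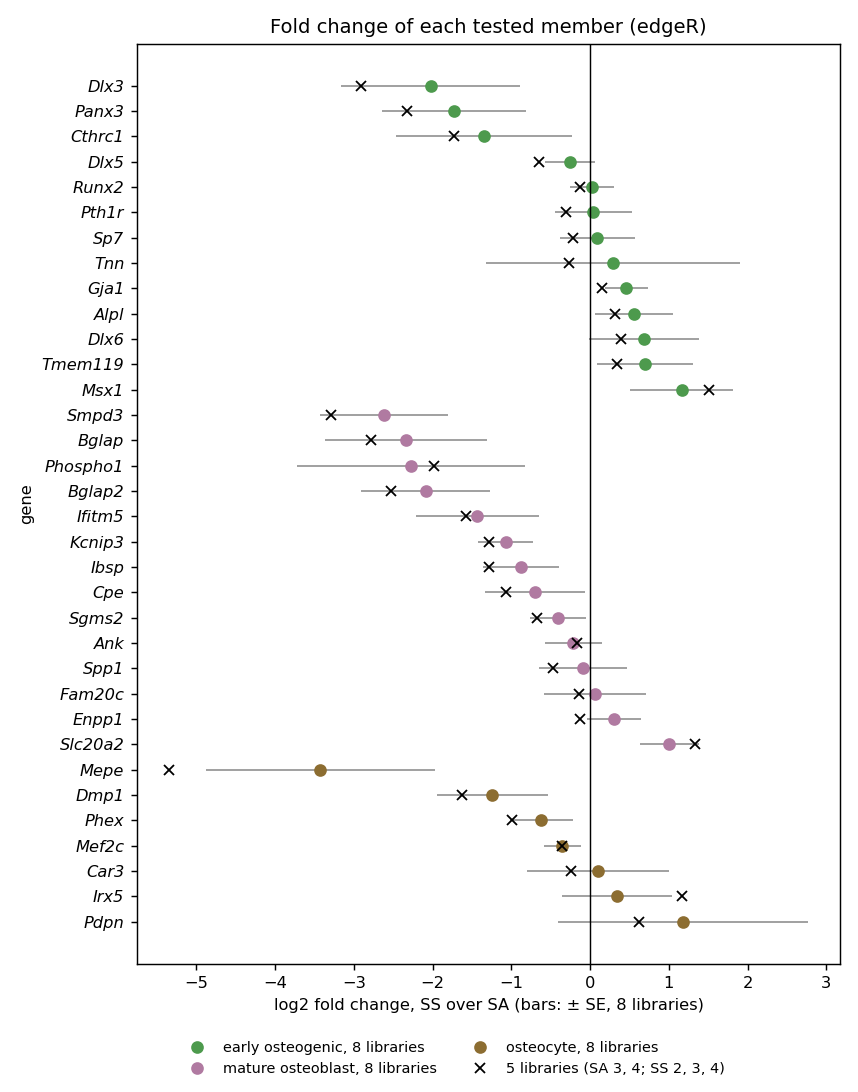
Log2 fold change of SS over SA (horizontal axis) for the 34 tested members, one per row, ordered within each class. Circles with bars are the edgeR estimate ± SE from 8 libraries, coloured by class, and crosses are the estimates without SA replicates 1 and 2 and SS replicate 1. Mature osteoblast genes lie mostly left of 0 (11 of 14), while early genes spread to both sides.

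The regulators that commit cells to bone were close to level. Runx2 was at 393, 216, 385 and 480.1 CPM in SA replicates 1 to 4 and at 303, 489, 432 and 269.6 CPM in SS replicates 1 to 4 (log2 fold change 0.019, SE 0.28, adjusted p = 0.994). Sp7 is the zinc finger factor downstream of Runx2. Sp7 was at 32.5, 35.8, 107 and 70.4 CPM in SA replicates 1 to 4 and at 30.9, 119, 63.9 and 47.98 CPM in SS replicates 1 to 4 (log2 fold change 0.091, SE 0.47, adjusted p = 0.985). Within each genotype the libraries differed more than the genotype means did, and SA replicate 3 and SS replicate 2 held the most Sp7. Alkaline phosphatase, which frees phosphate for mineral, is encoded by Alpl. Alpl was at 167, 185, 489.7 and 350.2 CPM in SA replicates 1 to 4 and at 175, 904, 394 and 283 CPM in SS replicates 1 to 4 (log2 fold change 0.56, SE 0.50, adjusted p = 0.835). SS replicate 2 was far above the other SS libraries, and without it the log2 fold change of Alpl was -0.068.

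The homeobox factors went in both directions. Dlx3 was at 1.24, 1.49, 23.5 and 47.8 CPM in SA replicates 1 to 4 and at 3.90, 5.85, 7.89 and 0.515 CPM in SS replicates 1 to 4 (log2 fold change -2.03, SE 1.13, adjusted p = 0.752). Dlx3 was high in SA replicates 3 and 4 only, and SA replicates 1 and 2 lay within the SS range. Without SA replicate 4 its log2 fold change was -0.95. Msx1, a factor of early skeletal precursors, was low. Msx1 was at 3.75, 6.83, 3.17 and 2.75 CPM in SA replicates 1 to 4 and at 11.7, 3.58, 4.58 and 17.2 CPM in SS replicates 1 to 4 (log2 fold change 1.17, SE 0.65, adjusted p = 0.752). It was highest in SS replicates 1 and 4, and SA replicate 2 lay above SS replicates 2 and 3. Dlx5 (log2 fold change -0.25) and its neighbour on chromosome 6, Dlx6 (0.69), had opposite signs, and without SA replicate 3 Dlx6 was at 1.56. No count of Msx2 was seen in SA, and SS replicates 1 to 4 held 1, 0, 16 and 8, too few for the filter. A floor of 3 counts per library applies to the SA zeros.

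Channel and matrix genes of young osteoblasts followed. Panx3, a pannexin channel of osteoblasts and hypertrophic cartilage, was uneven. Panx3 was at 1.01, 4.95, 33.3 and 29.1 CPM in SA replicates 1 to 4 and at 1.90, 4.23, 8.78 and 5.63 CPM in SS replicates 1 to 4 (log2 fold change -1.73, SE 0.91, adjusted p = 0.747). Gja1, the gap junction protein connexin 43, was abundant. Gja1 was at 478, 353, 758 and 697 CPM in SA replicates 1 to 4 and at 723, 1039, 787 and 597 CPM in SS replicates 1 to 4 (log2 fold change 0.46, SE 0.27, adjusted p = 0.757). Cthrc1 is a secreted protein with a collagen triple helix repeat. Cthrc1 was at 0.112, 6.51, 23.1 and 11.9 CPM in SA replicates 1 to 4 and at 0.492, 4.26, 5.60 and 6.01 CPM in SS replicates 1 to 4 (log2 fold change -1.35, SE 1.12, adjusted p = 0.825). High values of Panx3 and Cthrc1 were again in SA replicates 3 and 4, and without SA replicate 3 the log2 fold change of Cthrc1 was -0.60. Pth1r, the receptor of parathyroid hormone (0.041), and Tmem119, a membrane protein of osteoblasts (0.70), both had their highest level in SS replicate 2, without which Tmem119 was at 0.099. Tnn, tenascin W, did not exceed 2.32 CPM in any library.

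Among mature osteoblast genes the lowest p-values were those of Smpd3 and Kcnip3, both lower in SS, followed by Slc20a2, which was higher. Smpd3 encodes a sphingomyelinase needed for normal mineralization. Smpd3 was at 12.3, 20.4, 69.1 and 105 CPM in SA replicates 1 to 4 and at 6.96, 17.8, 1.30 and 7.69 CPM in SS replicates 1 to 4. The mean was 51.8 ± 43.7 CPM in SA against 8.45 ± 6.88 CPM in SS, SD with n = 4 (log2 fold change -2.62, SE 0.82, adjusted p = 0.680). Only SS replicate 2 reached into the SA range. The log2 fold change was -3.28 without that library and -2.004 without SA replicate 4. Kcnip3 encodes a calcium-binding partner of potassium channels. Kcnip3 was at 67.3, 49.8, 81.1 and 127 CPM in SA replicates 1 to 4 and at 25.4, 58.7, 35.1 and 35.5 CPM in SS replicates 1 to 4 (log2 fold change -1.07, SE 0.35, adjusted p = 0.695). SS replicate 2 alone was above the lowest SA library.

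Osteocalcin, the calcium-binding protein that osteoblasts secrete into bone, was lower on average in SS at all 3 of its genes, of which Bglap3 was scarce. Bglap was at 7.16, 37.8, 148 and 51.02 CPM in SA replicates 1 to 4 and at 4.50, 36.5, 1.34 and 5.76 CPM in SS replicates 1 to 4 (log2 fold change -2.34, SE 1.03, adjusted p = 0.696). Bglap2 was at 5.92, 26.02, 89.9 and 43.1 CPM in SA replicates 1 to 4 and at 3.94, 24.9, 4.44 and 5.44 CPM in SS replicates 1 to 4 (log2 fold change -2.09, SE 0.82, adjusted p = 0.695). At both genes SA replicate 3 was highest, and SA replicate 1 lay above SS replicates 1, 3 and 4 and below SS replicate 2, so the genotypes overlapped. SS replicate 2 stood close to SA replicate 2, and without SS replicate 2 the fold changes were -3.98 and -3.16. Without SA replicate 3 they were -1.43 and -1.39. Bglap3 had 84, 57, 94 and 4 counts in SA replicates 1 to 4 and 1, 1, 0 and 0 counts in SS replicates 1 to 4. It did not pass the filter, which asked for a minimal count in 4 libraries, and only 3 held it at more than 4 counts. DESeq2 called it lower (adjusted p = 0.00134), the only member among the 319 of 19321 genes it called (1.65%, with 0.725% lower and 0.926% higher), and edgeR without the filter did not (adjusted p = 0.484). Its counts did not overlap between genotypes, and the gene shares most of its coding sequence with the other 2.

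The abundant matrix proteins behaved unevenly. Ibsp encodes bone sialoprotein, which nucleates mineral. Ibsp was at 1490.1, 1139, 3869 and 4406 CPM in SA replicates 1 to 4 and at 809.9, 2610.2, 1457 and 1055 CPM in SS replicates 1 to 4 (log2 fold change -0.88, SE 0.48, adjusted p = 0.752). Spp1 encodes osteopontin, which is also made by macrophages and many stromal cells. Spp1 was at 3064, 2594, 8218 and 13864 CPM in SA replicates 1 to 4 and at 2204, 8709, 7296 and 7895 CPM in SS replicates 1 to 4 (log2 fold change -0.088, SE 0.56, adjusted p = 0.987). Ibsp was highest in SA replicates 3 and 4 and Spp1 in SA replicate 4, and both were lowest in SS replicate 1. SA replicates 1 and 2 lay within the SS range for both genes, and without SA replicate 4 the log2 fold change of Spp1 was 0.50. Per kb of annotated exon, SA means were 4208 CPM for Spp1, 1318 for Ibsp, 98.7 for Bglap, 73.9 for Alpl, 41.7 for Runx2, 28.4 for Dmp1 and 18.1 for Sp7. On this scale Spp1 and Ibsp lay far above the other genes named in that sentence.

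Ifitm5, a membrane protein specific to bone-forming cells, was the tested member without overlap. It was at 3.04, 5.89, 6.84 and 5.03 CPM in SA replicates 1 to 4 and at 1.72, 2.60, 2.96 and 0.418 CPM in SS replicates 1 to 4 (log2 fold change -1.43, SE 0.78, adjusted p = 0.751). SA replicate 1 and SS replicate 3 lay almost level, so the gap between the genotypes was narrow. Exons of Ifitm5 also overlap another annotated gene, Gm45717, on the same strand. Slc20a2, a phosphate transporter, was the member higher at an unadjusted p under 0.05. Slc20a2 was at 46.7, 41.1, 54.1 and 15.9 CPM in SA replicates 1 to 4 and at 52.8, 107, 82.8 and 74.97 CPM in SS replicates 1 to 4 (log2 fold change 1.01, SE 0.37, adjusted p = 0.695). SS replicate 1 lay below SA replicate 3, and the other SS libraries above all SA libraries.

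The genotypes overlapped in all other tested mature genes. Their log2 fold changes were -0.70 for Cpe, a carboxypeptidase that processes peptides, -0.41 for Sgms2, a sphingomyelin synthase, and -0.21 for Ank, which takes part in pyrophosphate export. Enpp1, which makes pyrophosphate, an inhibitor of mineral, was at 0.31 and Fam20c, the kinase of secreted matrix proteins, at 0.059. Phospho1, a phosphatase of matrix vesicles, did not exceed 1.12 CPM in any library. The 2 genes of pyrophosphate supply, Enpp1 and Ank, thus had opposite signs, and neither difference exceeded its SE.

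Of the osteocyte genes Dmp1, Phex, Mef2c, Car3 and Irx5 were above the floor of 3 counts in every library. Mepe was under it in SS replicates 2 and 3, and Pdpn in SA replicates 1 and 2 and SS replicate 1. Dmp1, a matrix phosphoprotein of osteocytes, was uneven among libraries. Dmp1 was at 30.4, 26.4, 135 and 122 CPM in SA replicates 1 to 4 and at 7.55, 49.5, 14.9 and 60.7 CPM in SS replicates 1 to 4 (log2 fold change -1.24, SE 0.71, adjusted p = 0.754). Phex is the endopeptidase of bone cells whose loss causes phosphate wasting. Phex was at 134, 92.3, 336 and 272 CPM in SA replicates 1 to 4 and at 84.4, 180.2, 170.5 and 107 CPM in SS replicates 1 to 4 (log2 fold change -0.62, SE 0.40, adjusted p = 0.773). Both were highest in SA replicates 3 and 4, and SA replicates 1 and 2 lay within the SS range. Mepe, a matrix phosphoglycoprotein of osteocytes, was sparse. Mepe was at 4.20, 4.12, 0.868 and 20.9 CPM in SA replicates 1 to 4 and at 2.003, 0, 0.0705 and 0.708 CPM in SS replicates 1 to 4 (log2 fold change -3.43, SE 1.46, adjusted p = 0.695). Most of the SA mean of Mepe came from 1 library, SA replicate 4, without which the log2 fold change was -2.13, and without SS replicate 1 it was -4.82. SA replicate 3, rich in Dmp1 and Phex, was poor in Mepe.

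The remaining members of the osteocyte class have wider expression. Mef2c, a transcription factor of osteocytes that B cells, muscle and endothelium also express, overlapped between genotypes. Mef2c was at 141, 116, 121 and 182 CPM in SA replicates 1 to 4 and at 80.6, 96.2, 140.2 and 121 CPM in SS replicates 1 to 4 (log2 fold change -0.35, SE 0.24, adjusted p = 0.777). Irx5 is an Iroquois homeobox factor. Irx5 was at 15.3, 11.2, 2.04 and 12.6 CPM in SA replicates 1 to 4 and at 2.56, 21.1, 16.1 and 12.3 CPM in SS replicates 1 to 4 (log2 fold change 0.34, SE 0.70, adjusted p = 0.952). Its lowest values were in SA replicate 3 and SS replicate 1, and the genotypes overlapped. Pdpn, podoplanin, reached at most 4.30 CPM. Car3, a carbonic anhydrase of osteocytes that fat and skeletal muscle also make, is given because of its spread, seen in its values. Car3 was at 40.05, 70.3, 278 and 174 CPM in SA replicates 1 to 4 and at 28.4, 143, 16.04 and 415 CPM in SS replicates 1 to 4 (log2 fold change 0.099, SE 0.90, adjusted p = 0.991). It was highest in SS replicate 4 and lowest in SS replicate 3, and without SS replicate 4 its log2 fold change was -1.17. Fabp4, a fatty acid carrier of fat cells, reached 358 CPM in that library, with 57.7 CPM the highest value elsewhere, and Plin1, a lipid droplet protein, 27.7 and at most 2.94 CPM. The 12 adipocyte markers, Car3 and Adipoq among them, summed to 291 to 821 CPM in SA and 292 to 1365 CPM in SS. Adipoq also stands in the list of reticular stromal markers used below. Lep, Cidea and Pck1 were at or near 0 throughout. Of the 12 skeletal muscle markers Myh4 and Pvalb were at 0, and the sum did not exceed 19.5 CPM in any library. The part of fat cell RNA in the level of Car3 was not tested.

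**Figure D2:**
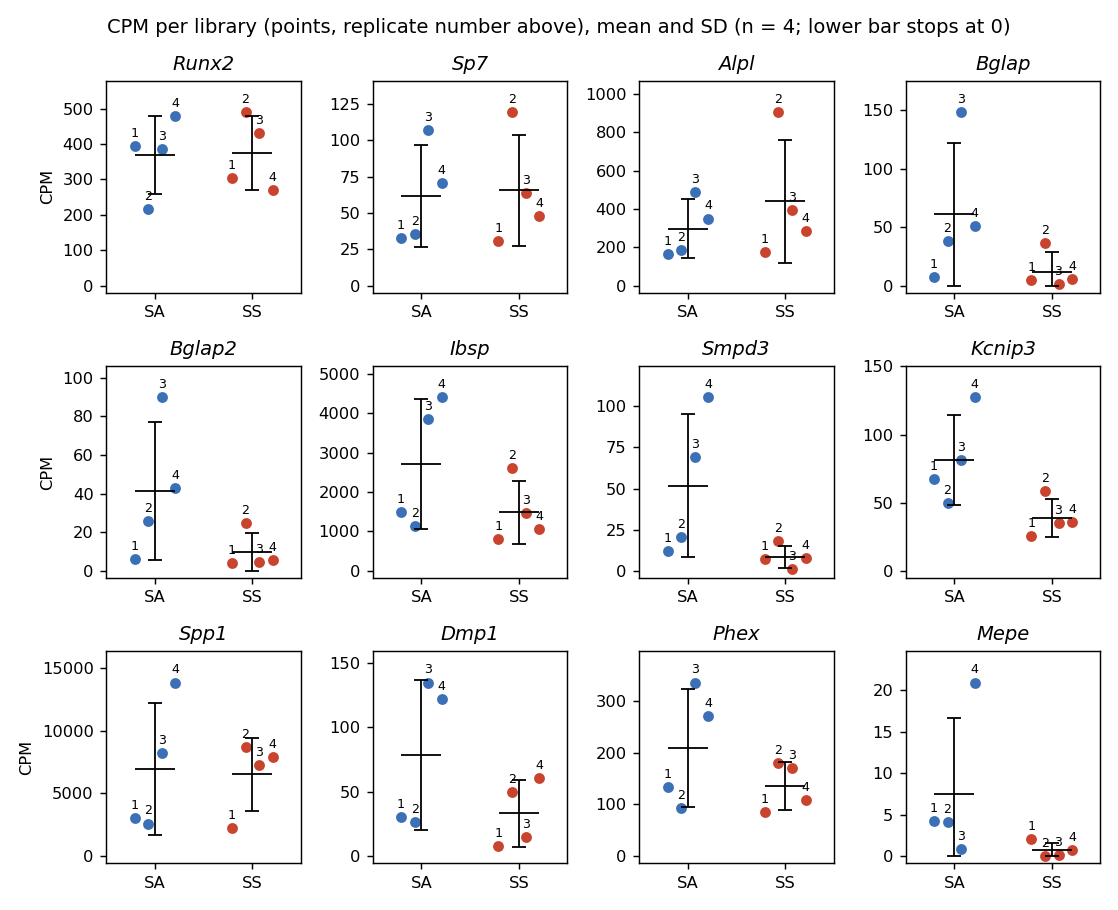
CPM of 12 members (one panel each, vertical axes in CPM on linear scales that differ between panels) in SA (blue) and SS (red) libraries, with the replicate number above each point, and the mean and SD as horizontal mark and bars. Lower SD bars stop at 0. Ibsp, Dmp1 and Phex show the same 2 high SA libraries, replicates 3 and 4, while SA replicates 1 and 2 sit among the SS values.

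Most members had their highest level in 1 of 3 libraries. Of the 34 tested, 12 were highest in SA replicate 4, 8 in SA replicate 3 and 9 in SS replicate 2, and 5 in all other libraries together. Of the 14 mature osteoblast genes, 12 had their highest level in SA replicate 3 or 4. Of the 13 early genes, 7 were highest in SS replicate 2. Each library was given a level per class, the median over tested members of log2(CPM + 0.5) less the gene's mean over 8 libraries. For mature osteoblast genes the 4 SA libraries, in replicate order, had levels of -0.27, -0.13, 0.98 and 1.16 and the 4 SS libraries -1.11, 0.55, -0.32 and -0.64. Osteocyte genes were at -0.20, -0.33, 1.12 and 0.82 in SA and -0.95, 0.23, 0.15 and 0.058 in SS. Early genes were at -0.78, -0.73, 0.64 and 0.42 in SA and -0.35, 0.45, 0.27 and -0.18 in SS. All 3 classes were above their mean in SA replicates 3 and 4 and in SS replicate 2, and below it in SA replicates 1 and 2 and SS replicate 1. In SS replicates 3 and 4 the mature class lay below the mean and the osteocyte class slightly above it.

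**Figure D3:**
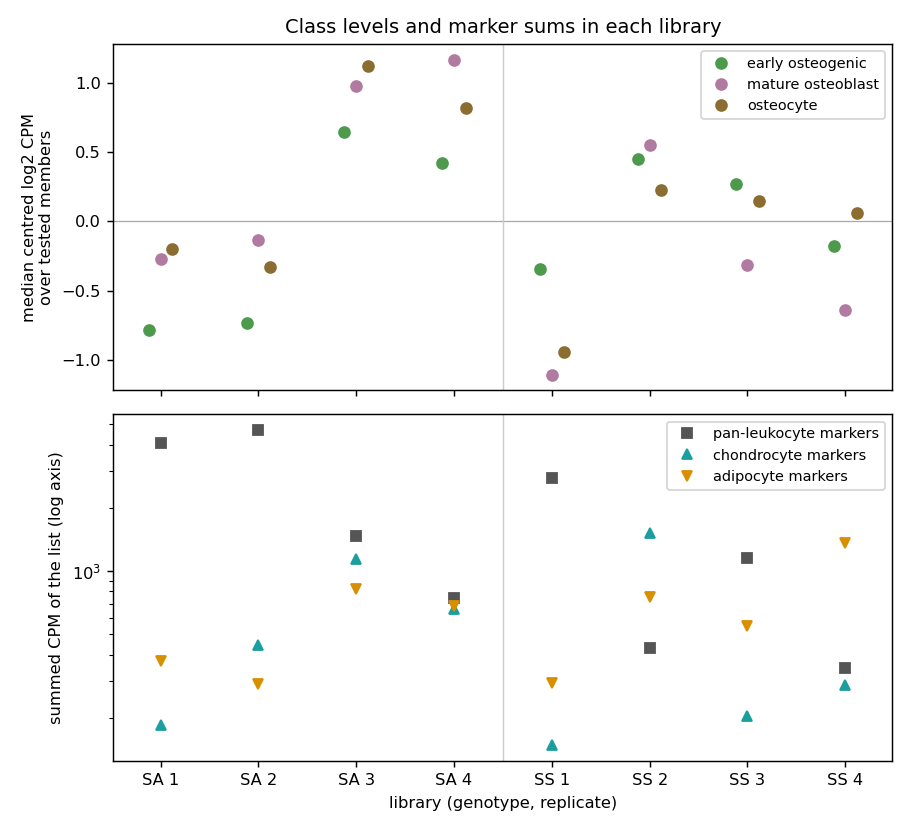
Upper panel: level of each class in each library, as the median over its tested members of log2(CPM + 0.5) less the gene's mean over 8 libraries. Lower panel: summed CPM of the pan-leukocyte, chondrocyte and adipocyte markers on a log axis. The 3 libraries richest in leukocyte markers, SA replicates 1 and 2 and SS replicate 1, have all 3 classes below 0.

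Markers of other cells also differed between the libraries. The pan-leukocyte sum was 4079, 4694, 1470.3 and 747 CPM in SA replicates 1 to 4 and 2777, 430.3, 1159 and 346 CPM in SS replicates 1 to 4, highest in the 3 libraries in which all 3 classes lay below their mean. All 15 of these markers were lower in SS (51% of all genes tested). At an unadjusted p under 0.05, 1 of them was lower (2.96% of all genes tested). The part of leukocyte RNA in the levels of the bone genes was not tested. In bulk samples fewer cells of a type and less RNA per cell cannot be told apart. The 16 reticular stromal markers, which include Cxcl12 and Lepr, summed to 17317 to 37620.0 CPM in SA and 27132 to 37283 CPM in SS, and their lowest sum was also in SA replicate 2. B cell markers, of cells that also express Mef2c, summed to 541 to 1904 CPM in SA and 399.9 to 438 CPM in SS. Ebf1 stands in both the B cell and the reticular stromal list, so the B cell sum is not of B cells alone. Neutrophil markers summed to 6058 to 34735 CPM in SA and 1361 to 16781 CPM in SS. Erythroid markers summed to 880.5 to 1571 CPM in SA and 379 to 1471 CPM in SS. Megakaryocyte markers summed to 7.27 to 389.7 CPM in SA and 7.01 to 40.3 CPM in SS and endothelial markers to 22.3 to 154 CPM in SA and 30.5 to 240.0 CPM in SS. The macrophage and osteoclast list summed to 143 to 658 CPM in SA and 197 to 961 CPM in SS, with Calcr at 0 in all libraries. Pericyte and smooth muscle markers summed to 655 to 836 CPM in SA and 1311 to 6564 CPM in SS, and periosteal and fibroblast markers to 1815 to 2816 CPM in SA and 2016 to 3933 CPM in SS.

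Cartilage genes were highest in SS replicate 2. That library also had the highest periosteal and fibroblast sum and the lowest erythroid sum. The 13 chondrocyte markers summed to 186, 443, 1136 and 657 CPM in SA replicates 1 to 4 and 148, 1515, 205 and 287 CPM in SS replicates 1 to 4. Col10a1, the collagen of hypertrophic cartilage, was at 332 CPM in SS replicate 2, whereas no other library exceeded 10.6 CPM. Acan, the cartilage proteoglycan aggrecan, was at 31.8 CPM there and at most 4.08 CPM elsewhere, and Hapln1, its link protein, at 58.7 and at most 0.220 CPM. Ucma, another cartilage gene, did not exceed 0.0322 CPM. Outside SS replicate 2, Col10a1, Acan and Hapln1 made up little of the sums, which other markers of the list carried. Hypertrophic chondrocytes also express Alpl, Pth1r, Ibsp and Sp7, whose SS values were highest in that library. So were the SS values of Runx2, Gja1, Bglap, Bglap2, Smpd3 and Kcnip3. Panx3, also a gene of hypertrophic cartilage, was at 4.23 CPM there, below SS replicate 3 (8.78 CPM) and SS replicate 4 (5.63 CPM). Without SS replicate 2 the log2 fold changes were -0.068 for Alpl, -0.51 for Pth1r, -1.30 for Ibsp and -0.37 for Sp7. The early median was then -0.14, with 8 of 13 members lower. The mature osteoblast median was -1.30, with 13 of 15 lower, Bglap3 among them since it passed the filter of that fit. The part of cartilage RNA in the levels of these genes was not tested.

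Without the 3 leukocyte-rich libraries the comparison was SA replicates 3 and 4 against SS replicates 2, 3 and 4, and mature osteoblast genes stood further apart. Here too edgeR called no gene (0%), with a smallest adjusted p of 0.709 among the members. Of the 14 mature genes 13 were lower (median log2 fold change -1.18), of the 7 osteocyte genes 5 (-0.35), and of the 13 early genes 8 (-0.21), where 48.4% of all 18491 genes tested were lower (median 0.025). Lower at an unadjusted p under 0.05 were 12 of 34 members, against 3.04% of all genes. They were Smpd3 (-3.29), Bglap (-2.79), Bglap2 (-2.53), Ibsp (-1.28), Kcnip3 (-1.28) and Cpe (-1.07) of the mature class. Dmp1 (-1.63), Phex (-0.997) and Mepe (-5.35) were those of the osteocyte class, and Dlx3 (-2.91), Panx3 (-2.33) and Cthrc1 (-1.73) those of the early class. Slc20a2 was higher at that level (1.33), as were 3.46% of all genes. The ranges of 14 members did not overlap on the lower side, against 10.9% of all genes tested, and those of 2, Msx1 and Slc20a2, on the higher side, against 11.2%. Runx2 (-0.13), Sp7 (-0.21), Alpl (0.32) and Pth1r (-0.31) were not among them. With 2 SA libraries left, this comparison rests on SA replicates 3 and 4 alone. Of the 14 mature osteoblast genes, SA replicate 4 held the highest level of 8 and SA replicate 3 of 4. In the 3 libraries left out all 3 classes lay below their mean. A wider gap thus follows in part from the choice of libraries, and the counts above are no separate support for it.

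**Figure D4:**
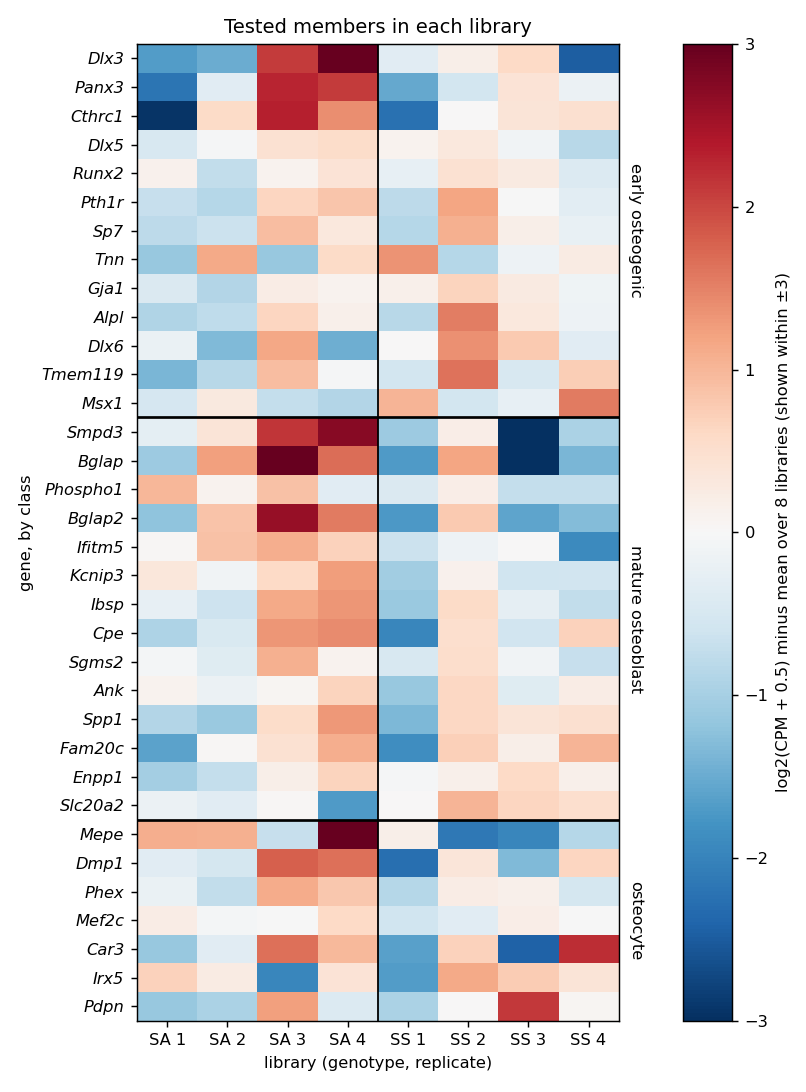
Each tested member (rows, by class) in each library (columns), as log2(CPM + 0.5) less the gene's mean over 8 libraries, shown within ±3, with red above and blue below the mean. SA replicates 3 and 4 are red across most mature osteoblast rows, and the early rows with Alpl and Tmem119 are reddest in SS replicate 2.

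Other genes of the lineage, a list of 44 outside the 36, were split between the directions. Of the 40 tested, 21 were higher and 19 lower in SS (median log2 fold change 0.066), and none passed the edgeR test. At an unadjusted p under 0.05 were 4 higher genes and 1 lower. Over all genes tested 4.03% were higher and 2.96% lower at that level, and 51% were lower at any p. Tnfsf11 encodes RANKL, the signal from bone cells that forms osteoclasts. Tnfsf11 was at 14.02, 17.7, 18.96 and 47.2 CPM in SA replicates 1 to 4 and at 44.7, 143, 49.4 and 51.3 CPM in SS replicates 1 to 4 (log2 fold change 1.56, SE 0.50, adjusted p = 0.695). SS replicate 2 was far the highest, and SA replicate 4 lay above SS replicate 1. Tnfrsf11b, its decoy receptor osteoprotegerin, was at 4.74 ± 1.998 CPM in SA against 7.21 ± 4.65 CPM in SS (SD, n = 4). Lrp6, a Wnt co-receptor (0.69), Kremen1, a receptor that dampens Wnt signalling (0.91), and Mmp14, a membrane collagenase (0.81), were the other 3 on the higher side. Creb3l1, a factor for collagen secretion in osteoblasts, was the lower one (log2 fold change -0.89, SE 0.36, adjusted p = 0.695), and Ptprz1, a phosphatase of osteoblasts, had a fold change of -0.83.

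Type I collagen, the main protein of bone, is encoded in part by Col1a1. Col1a1 was at 1143, 3804, 9907 and 4879.7 CPM in SA replicates 1 to 4 and at 1181, 5088, 2072 and 2766 CPM in SS replicates 1 to 4 (log2 fold change -0.83, SE 0.58, adjusted p = 0.787). SA replicate 3 was the highest and SA replicate 1 the lowest of all 8. Of the late osteocyte genes Sost was nearly missing and Fgf23 sparse. Sost, the Wnt inhibitor sclerostin, did not exceed 0.112 CPM in any library, and Fgf23, the phosphate hormone, was at 1.61, 0.381, 0 and 0.0367 CPM in SA replicates 1 to 4 and 11.4, 3.25, 0.0352 and 0 CPM in SS replicates 1 to 4. The osteocyte genes Dmp1 and Phex were thus measured in cells with almost no Sost.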

How the data were processed

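Per the labels' protocols, RNA of sorted marrow stromal cells was extracted with a small-input kit and libraries were made with a low-input kit. The 16 samples are 2 lanes of 8 libraries. The authors deposited raw counts per gene symbol, with 1 column per library. Tools listed in the submitters' processing notes are STAR, featureCounts, bcl2fastq and DESeq2, with no version, and the builds GRCm38 and mm10. The sources used here give neither annotation nor strand setting, so a gene and one that overlaps it cannot be separated. Exons of 9 members overlap another gene in GENCODE M21, among them Runx2, Spp1, Smpd3, Pth1r, Slc20a2 and Ifitm5. For Spp1 and Ifitm5 the other gene lies on the same strand. The authors' second table, of normalized values, was not used.

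Genes were filtered with filterByExpr, scaled by TMM and tested with edgeR 4.0.16 (R 4.3.3), as a robust quasi-likelihood fit of SS against SA, with p-values adjusted by Benjamini-Hochberg over 17316 genes. Adjusted p-values are from this fit unless DESeq2 is named. CPM uses TMM-scaled totals. The SE of a log2 fold change is its size over the square root of the F statistic. The unit of replication was the library, 4 per genotype. Lengths are the union of annotated exons. Alternatives were DESeq2 1.42.0, limma-voom (limma 3.58.1), RLE scaling, no filter, a replicate block, and leaving out each library or the 3 leukocyte-rich libraries. The fit was tested on simulated data, with 50 genes changed at each size. It recovered 2% of 2-fold, 36% of 4-fold, 74% of 8-fold and 66% of 16-fold changes. Of 96 calls 7 were false. Most 2-fold changes were thus not called in the simulated data. Genes were drawn independently there, so shifts in cell content between libraries were not simulated and recovery in the real data may differ. The members, gene lists and the set of 3 leukocyte-rich libraries were chosen with earlier results of these data known, which already showed lower osteoblast genes in SS, so their direction here is no independent support. Values in every library are given for defining genes and for members of at least 5 CPM in a genotype with the 5 smallest p of their class or no overlap. From the list of other lineage genes, 5 were named whatever their values, and the 6 with the smallest p.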

Additional observations from a re-analysis of the deposited data

Results flagged for a closer look

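Of 68 sets of 4 libraries (34 members in each genotype), 5 held a library whose gap to its nearest neighbour, as a share of the range, exceeded the critical value of Dixon's test, where chance flags about 1 in 20. Bglap was at 36.5 CPM and Bglap2 at 24.9 CPM in SS replicate 2, against at most 5.76 and 5.44 CPM in the other SS libraries. The coding sequences of these 2 genes are nearly identical. Mepe was at 20.9 CPM in SA replicate 4, against at most 4.20 CPM in the other SA libraries. Pdpn was at 2.07 CPM in SA replicate 3 and at 4.30 CPM in SS replicate 3, against at most 0.330 and 0.643 CPM in the others of the genotype.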

How the results depend on the processing

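Depth limits what can be said of Msx2, which had at most 16 counts in a library. No alternative but DESeq2 called a member. DESeq2 called 1 member (Bglap3) and 319 genes in all, and edgeR without the filter called 5 genes and no member. Limma-voom and RLE scaling called none. Without the 3 leukocyte-rich libraries 8 early members were lower in place of 4. With each library left out, calls over all genes ran from 0 to 1 (1 without SS replicate 1) and member calls stayed at 0. The number of lower members ran from 4 to 8 for the early class, 10 to 13 for the mature class, 4 to 5 for the osteocyte class and 19 to 25 in all, of 34 or 35 tested. The medians ran from -0.14 to 0.36, -1.30 to -0.54, -0.52 to -0.20 and -0.51 to -0.10 in the same order. Log2 fold changes that changed sign with a library left out were those of Runx2 from -0.17 to 0.18, Sp7 from -0.37 to 0.49, Alpl from -0.068 to 0.89, Pth1r from -0.51 to 0.36, Tnn from -0.69 to 1.29, Spp1 from -0.36 to 0.50, Ank from -0.51 to 0.028, Fam20c from -0.27 to 0.48, Pdpn from -0.48 to 3.36, Car3 from -1.17 to 0.66 and Irx5 from -0.021 to 0.68. Limma-voom and the replicate block gave log2 fold changes nearer to 0 than edgeR for Dlx3 (-1.18 and -0.54), Cthrc1 (-0.48 and -0.58) and Panx3 (-0.94 and -0.95). By limma-voom the sign turned for Spp1 at 0.072 and Car3 at -0.57. Without the 3 leukocyte-rich libraries it turned for Runx2 at -0.13, Sp7 at -0.21, Pth1r at -0.31, Tnn at -0.27, Enpp1 at -0.13, Fam20c at -0.14 and Car3 at -0.24. The cause was not tested.

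The replicate numbers are shared by the genotypes, but no label says that they mark a litter or day, and same-numbered libraries did not all deviate together (correlations over genes of 0.22, -0.15, -0.020 and 0.14 for numbers 1 to 4). With the replicate number as a block, edgeR called 0 genes and 0 members, with 20 of 34 members lower and a median of -0.32, and the sign turned for Pth1r at -0.017, Spp1 at 0.035 and Car3 at -0.31.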

Other observations

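Members of the chromosome 5 cluster differed in SS replicate 4. Spp1 was at 7895 CPM there, close to SA replicate 3 (8218 CPM), while Ibsp was at 1055 CPM, below every SA library. Dmp1 was at 60.7 CPM, above the other SS libraries. The same library held 4985 CPM of Rgs5, a pericyte gene, against at most 1085 CPM elsewhere. The differences within the library were not tested.

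Smpd3 was at 1.30 CPM and Bglap at 1.34 CPM in SS replicate 3, the lowest of all 8 libraries for both. Runx2 (432 CPM) and Alpl (394 CPM) there were above the mean of SA. Bglap2, nearly identical to Bglap in coding sequence, was at 4.44 CPM there, above SS replicate 1 (3.94 CPM). How reads were divided between Bglap and Bglap2 is uncertain.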
